A study of Homo sapiens with 10 samples.

Results

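The expression of 9 genes that mark the luminal epithelial cells of the prostate was examined in PC3 cells, together with its response to the LXR agonist GW3965. The 9 genes, *KLK2*, *KLK3*, *TMPRSS2*, *FOXA1*, *FKBP5*, *FOLH1*, *STEAP1*, *STEAP2* and *SLC45A3*, were found by their symbols among the 62656 genes of the deposited expression table, and each symbol matched 1 gene. They were chosen as known markers of the lineage and not by a value in these libraries, though with earlier results of these data known. PC3 is a line of human prostate cancer cells that was derived from a bone metastasis and is known to grow without androgen. Cells were grown in RPMI-1640 with FBS and L-Glu and starved overnight. They then received either DMSO, the vehicle, or 1 µM of GW3965 for 24 h, for which the series' design names RPMI-1640 and L-Glu and no FBS. Each condition had 5 RNA-seq libraries, numbered 1 to 5 in the sample titles. All libraries came from the same line, which is one model of advanced disease, and nothing in the labels says that the 5 libraries of a condition came from separate cultures, so the p-values below measure the spread between these libraries.

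Luminal cells line the prostatic ducts and secrete the proteins of the seminal fluid. Their secretory genes are switched on by androgen through response elements in the DNA. The pioneer factor FOXA1 opens the chromatin at these elements, and the homeobox factor HOXB13 binds many of the same regions. LXRs are nuclear receptors, which bind oxysterols and switch on the genes of cholesterol efflux and of fatty acid synthesis.

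The luminal genes formed a ladder of levels in PC3 cells that ran from 33.8 ± 3.72 RPKM for *FOXA1* (SD, n = 5 DMSO libraries) to no read at all for *KLK3*. RPKM corrects the reads of a gene for its length and for the depth of the library, so that levels can be compared between genes. Of the 9 genes, 7 were detected in every library, *KLK2* had reads in 2 of 10 libraries, and *KLK3* had none in any. Of the 9, 6 were high enough to be tested with limma for a response to GW3965, and none of these passed. The other 3, *FOLH1*, *KLK2* and *KLK3*, were too low for that test. The largest difference was in *SLC45A3*, which was lower in all 5 GW3965 libraries than in any DMSO library but missed the threshold over all genes.

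The libraries held 30612589 to 39387799 reads in the DMSO group and 30432011 to 41639279 reads in the GW3965 group, as recovered from the RPKM values. The response to the agonist was checked on 3 LXR target genes. *ABCA1*, a cholesterol exporter, was at 3.43 ± 1.34 RPKM in DMSO and at 16.5 ± 2.37 RPKM in GW3965 (SD, n = 5). It rose by 2.29 on the log2 scale (SE 0.20, limma adjusted p = 0.00063), and *ABCG1* (2.13) and *SREBF1* (0.74) rose as well. The label of epithelial cells was checked against 5 markers. The keratins *KRT8*, *KRT18* and *KRT19* and the adhesion protein gene *EPCAM* were above 0.5 RPKM, whereas *CDH1*, which encodes E-cadherin, had a mean of 0.249 RPKM in DMSO. The summed level of the 5 markers was 196.8 to 252.5 RPKM in DMSO and 218.6 to 262.8 RPKM in GW3965. Markers of most other cells were low: 0 of 6 neuroendocrine and 0 of 5 leukocyte genes reached a mean of 0.5 RPKM, 1 of 6 fibroblast genes (*COL1A1*, 1.00 RPKM in DMSO) and 1 of 3 endothelial genes (*PECAM1*, 0.639 RPKM) did, and 1 of 4 basal genes did. That gene, the keratin gene *KRT15*, was at 4.28 RPKM in DMSO and 4.31 RPKM in GW3965, below *FOXA1* and *SLC45A3* and above the other luminal genes, whereas the basal keratin gene *KRT5* had no read in any library. Because RNA was taken from all cells of a culture, a smaller number of expressing cells and less RNA per cell cannot be told apart.

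*KLK3* encodes prostate-specific antigen (PSA) and *KLK2* the closely related protease hK2, both textbook genes of the androgen response. Their promoters are shown because these are the luminal genes with no or almost no reads in PC3, and because a known androgen response element lies just before the RefSeq start of each. The sequences are from RefSeq on GRCh38.p14, on the plus strand, 5′ to 3′, and each 30-base stretch lies at chr19:50854738-50854767 for *KLK3* and chr19:50873256-50873285 for *KLK2*. Capitals mark a match of 15 bases to the letters NGAACANNNAGTGCT, searched on both strands.
KLK3: taattgcAGAACAGCAAGTGCTagctctcc
KLK2: tatgtgtGGAACAGCAAGTGCTggctctcc
Counted from these RefSeq starts, the match covers positions -170 to -156 in *KLK3* and -176 to -162 in *KLK2*. The *KLK2* start in RefSeq lies inside the longer span that GENCODE gives this gene. The letters searched are those of the known element in these genes, with N for any base, so the matches in *KLK3* and *KLK2* were fixed in advance. Of the 35116 promoter windows of the same length, 14 hold a match, or 0.0399%, and no other luminal gene with a window does.

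The 250 bases before the *KLK3* start, at chr19:50854665-50854914 on the plus strand, show where this element sits, again in capitals.
KLK3 promoter: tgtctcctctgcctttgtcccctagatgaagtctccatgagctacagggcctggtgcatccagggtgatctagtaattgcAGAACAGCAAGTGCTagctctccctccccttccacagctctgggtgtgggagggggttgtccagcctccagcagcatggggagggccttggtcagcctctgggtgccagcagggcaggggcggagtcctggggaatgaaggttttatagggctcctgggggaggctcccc
This window and that of *KLK2* were identical in 205 of 259 aligned columns, or 79.2%. Windows were given for 7 of the 9 genes. Among these the shorter letters AGAACA, a part of such elements that overlaps the match above, were found in *KLK3* alone, against 12.4% of all windows. The LXR letters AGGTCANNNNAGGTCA were found in 0.0142% of all windows and in none of the luminal genes, and the variant GGGTCANNNNGGGTCA in 0.0057% and in none. A match describes the letters of a window only, and its absence says nothing about a factor.

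The kallikrein genes *KLK3* and *KLK2* were silent or nearly so. *KLK3*, on chromosome 19 from 50854915 to 50860764 on the plus strand (GRCh38), had 0 reads in each of the 10 libraries, 0 of 353428217 reads in all. A count of 0 allows up to 3 reads, which for *KLK3* came to 0.0153 to 0.0214 RPKM in a single library and 0.00181 RPKM over all 10. Such floors describe the error of counting alone, as PCR copies could not be removed by molecular identifiers.

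*KLK2* follows 804 bases after *KLK3*, from 50861568 to 50880567 on the same strand in GENCODE. It had 0 reads in all 5 DMSO libraries. In the GW3965 libraries, number 1 had 1 read (0.00463 RPKM), number 2 had 4 reads (0.0158 RPKM), and numbers 3, 4 and 5 had none. With 5 reads in total, the groups did not differ by an exact two-sided permutation test of the mean RPKM (p = 0.444), and no fold is given.

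The rest of the kallikrein family, secreted serine proteases encoded in the same cluster, was also low, though some of its genes had more reads than *KLK2* and *KLK3*. None of its 14 other genes reached a mean of 0.5 RPKM, and *KLK4*, *KLK9*, *KLK12* and the pseudogene *KLKP1* were at 0 in every library. The highest was *KLK14*, at 0.331 ± 0.0924 RPKM in DMSO and 0.331 ± 0.137 RPKM in GW3965 (SD, n = 5). Its mean lay above those of *FOLH1* (0.182 RPKM in DMSO), *KLK2* and *KLK3*. That it lay below every tested luminal gene follows from the filter of 0.5 RPKM.

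**Figure D1:**
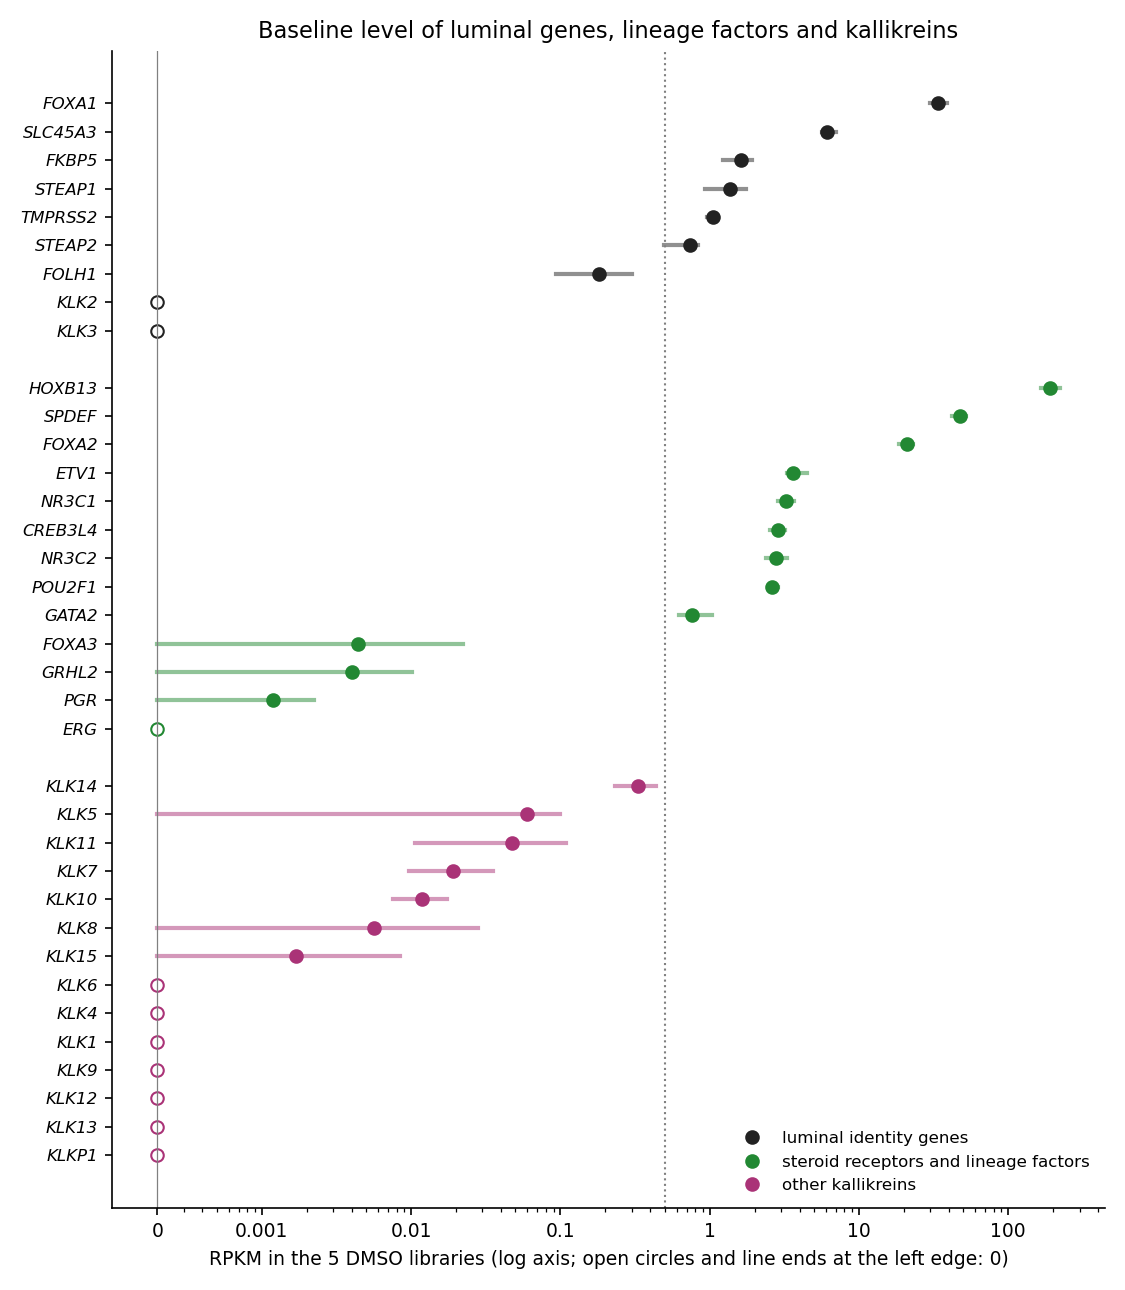
RPKM on a log axis in the 5 DMSO libraries (points, means; lines, lowest to highest library) for the 9 luminal genes, the steroid receptors and lineage factors reported here and 14 other kallikreins. Open circles mark a mean of 0, lines that reach the left edge include a library at 0, and the dotted line is the filter of 0.5 RPKM: *FOXA1* and *HOXB13* stand far to the right, while every kallikrein lies left of the filter.

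*FOXA1*, the pioneer factor, lies on chromosome 14 from 37589984 to 37596059 on the minus strand. Its level in DMSO libraries 1 to 5 was 34.9, 30.1, 30.3, 39.1 and 34.4 RPKM. In GW3965 libraries 1 to 5 it was 35.4, 33.4, 33.2, 34.5 and 29.1 RPKM. The groups overlapped throughout, and each library held 4048 to 6569 reads of the gene. Only 1272 genes had a higher mean in DMSO, so *FOXA1* stood above 97.2% of the genes detected there. The log2 fold change was -0.02 (SE 0.08, 95% interval -0.21 to 0.16, limma adjusted p = 0.982), which bounds the ratio of GW3965 to DMSO between 0.866 and 1.115. Its sign turned when DMSO library 4 or GW3965 library 5 was left out. *TTC6*, which overlaps *FOXA1* on the opposite strand, was at 2.11 RPKM in both groups. Of the other genes that overlap or neighbour a luminal gene, not counting those named elsewhere, 2 were tested and neither was called: *MIPOL1* next to *FOXA1*, at 1.43 RPKM in DMSO and 1.34 RPKM in GW3965, and *RIPK4* next to *TMPRSS2*, at 6.96 and 6.35 RPKM.

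Some other lineage factors of the prostate, not chosen as luminal markers, were expressed beside it, and others had almost no reads. Of 15 steroid receptors and lineage factors, 11 were tested and 0 were called by limma, 1 of them with an unadjusted p under 0.05, and their median log2 fold change was -0.003 against 0.003 over all 20402 tested genes. *HOXB13* was the highest, at 191 ± 20.5 RPKM in DMSO and 180 ± 12.3 RPKM in GW3965 (SD, n = 5), with 245 genes above it in DMSO. The ETS factor gene *SPDEF* was at 47.2 ± 3.88 RPKM in DMSO and *FOXA2*, a relative of *FOXA1*, at 21.0 ± 2.24 RPKM. *PGR*, *ERG*, *FOXA3* and *GRHL2* had 3, 0, 1 and 4 reads over the 5 DMSO libraries.

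The glucocorticoid receptor gene *NR3C1* was at 3.24 ± 0.275 RPKM in DMSO and 3.27 ± 0.327 RPKM in GW3965. *NR3C2*, which encodes the mineralocorticoid receptor, had the highest log2 fold change of the list, 0.28 (SE 0.10, limma adjusted p = 0.503), with 2.80 ± 0.347 RPKM in DMSO and 3.42 ± 0.331 RPKM in GW3965. The lowest was that of *GATA2*, which encodes a zinc finger factor, at -0.29 (SE 0.18, limma adjusted p = 0.824), with 0.764 ± 0.172 and 0.604 ± 0.102 RPKM.

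*SLC45A3*, which encodes the membrane transporter called prostein, lies on chromosome 1 from 205657851 to 205680459 on the minus strand. In DMSO libraries 1 to 5 it was measured at 5.72, 5.85, 5.63, 7.01 and 6.22 RPKM. The GW3965 libraries 1 to 5 held 4.35, 4.71, 5.34, 5.13 and 4.84 RPKM. The highest GW3965 library thus lay below the lowest DMSO library. Means were 6.09 ± 0.562 and 4.87 ± 0.383 RPKM (SD, n = 5), from 555 to 1001 reads a library.

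The log2 fold change of *SLC45A3* was -0.31 (SE 0.08, 95% interval -0.48 to -0.14), or a ratio of 0.805 with an interval of 0.715 to 0.906. Its unadjusted p in limma was 0.00196 and its adjusted p over all tested genes was 0.231, so it did not pass the threshold of 0.05. An exact two-sided permutation test of the mean RPKM gave p = 0.00794, the smallest that 5 against 5 libraries allow. Groups without overlap always give this value, so it only restates that the libraries lay apart. Over all tested genes, 6.03% had a lower log2 fold change. Without DMSO library 4, where *SLC45A3* was highest, the log2 fold change was -0.26. The genes on either side were close to level: *ELK4*, 25889 bases away, was at 10.3 ± 1.39 RPKM in DMSO and 10.7 ± 0.829 RPKM in GW3965 (limma adjusted p = 0.957), and *NUCKS1*, 32360 bases away, was at 74.5 ± 3.82 and 75.2 ± 4.83 RPKM (limma adjusted p = 0.988). *SLC45A4*, the only tested relative, was at 4.52 ± 0.456 RPKM in DMSO and 4.18 ± 0.229 RPKM in GW3965, with a log2 fold change of -0.11 (SE 0.08, limma adjusted p = 0.860).

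Over the whole group, 6 of the 9 luminal genes passed the filter of 0.5 RPKM and were tested, and 0 of these 6 were called at an adjusted p under 0.05, where limma called 0.157% of all tested genes, 0.147% as higher and 0.0098% as lower. *SLC45A3* was the single member with an unadjusted p under 0.05, against 6.99% of all tested genes. It was also the single member whose groups did not overlap, which held for 1.84% of all tested genes in either direction, for 1.35% with GW3965 higher and for 0.49% with GW3965 lower. Of the 6 log2 fold changes 3 were above 0 and 3 below, with a median of -0.01, against 51.1% above 0 and a median of 0.003 over all tested genes. A count of 0 was also given by voom on the recovered reads.

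**Figure D2:**
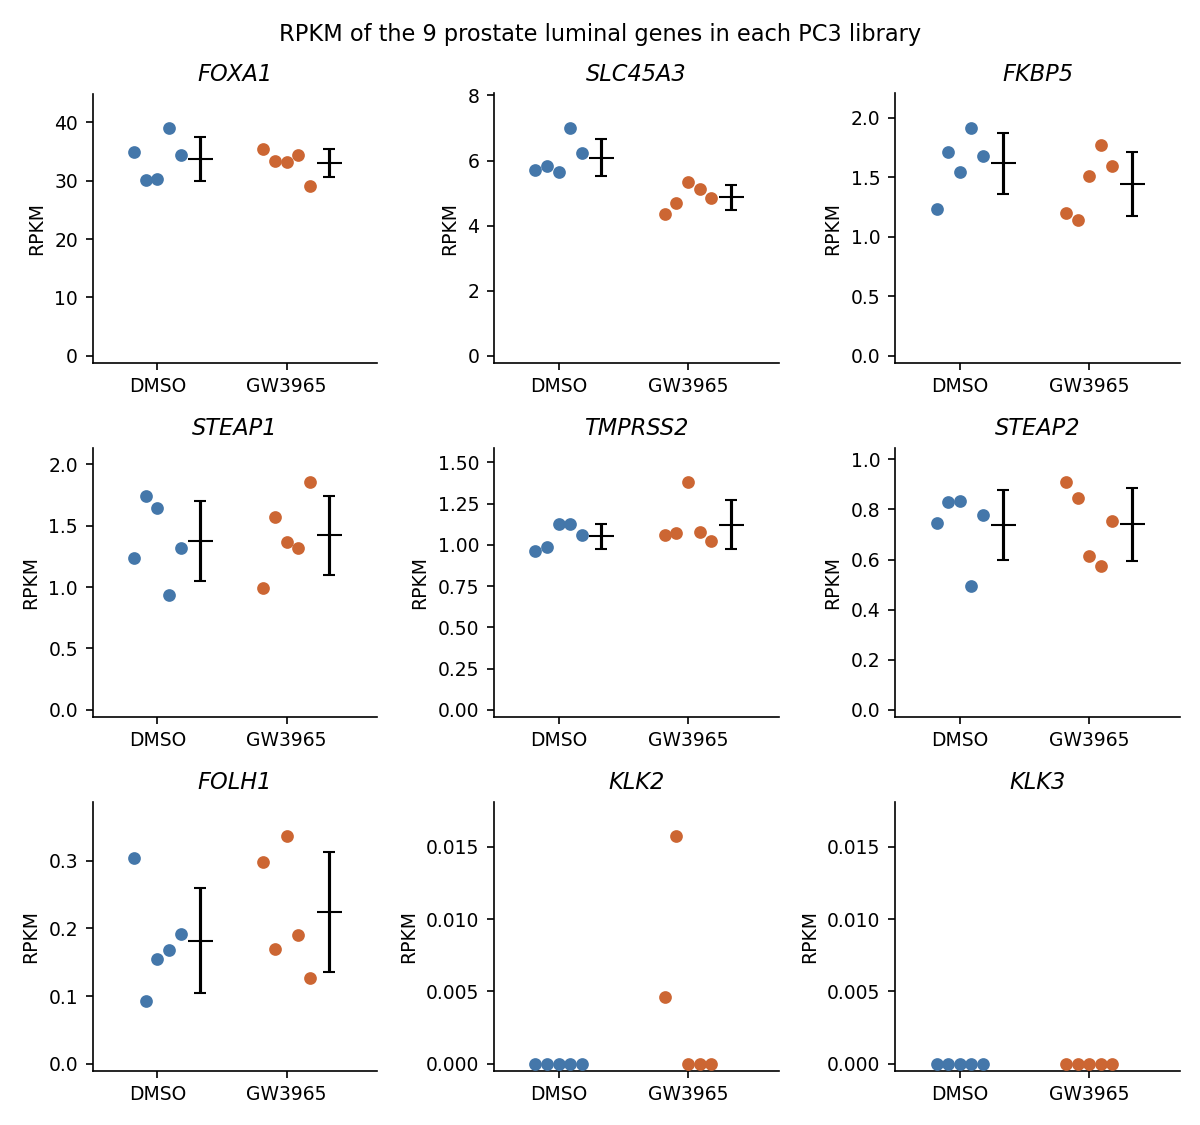
RPKM of each luminal gene (y axis, linear, a scale for each gene) in the 5 DMSO and 5 GW3965 libraries; points run from library 1 to 5, and the bar beside them is the mean with its SD, left out for *KLK2* and *KLK3*. The points of *SLC45A3* do not overlap between the groups, those of the other detected genes do, and *KLK3* lies at 0 throughout.

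*FKBP5* encodes FKBP51, a co-chaperone that holds steroid receptors in the HSP90 complex, and both androgen and glucocorticoid switch it on. It lies on chromosome 6 from 35573585 to 35728583 on the minus strand. Its level was 1.23, 1.71, 1.54, 1.92 and 1.68 RPKM in DMSO libraries 1 to 5. In the GW3965 libraries it was 1.20, 1.14, 1.51, 1.77 and 1.60 RPKM. The lowest values were those of DMSO library 1 and GW3965 libraries 1 and 2, and the groups overlapped. The log2 fold change was -0.16 (SE 0.14, 95% interval -0.47 to 0.16, limma adjusted p = 0.908), from 434 to 775 reads a library.

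The HSP90 chaperone genes were all expressed: 10 of 10 were tested and 0 were called by limma, none with an unadjusted p under 0.05. *HSP90AB1*, which encodes the HSP90 beta chain, was the highest, at 342 ± 41.3 RPKM in DMSO and 339 ± 46.9 RPKM in GW3965. *FKBP4*, which encodes the related FKBP52, was at 11.6 ± 1.9 RPKM in DMSO, and *PPID*, which encodes cyclophilin 40, had the highest log2 fold change of the list, 0.15 (SE 0.12). The lowest, -0.07 (SE 0.13), was that of *HSPA8*, which encodes the chaperone HSC70. Of 10 target genes of the glucocorticoid receptor, 7 were tested and 0 were called, none with an unadjusted p under 0.05. These ran from -0.29 for the metallothionein gene *MT2A* (SE 0.17, limma adjusted p = 0.804) to 0.27 for *ERRFI1*, which encodes an inhibitor of EGF receptor signalling (SE 0.13, limma adjusted p = 0.729).

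*STEAP1* and *STEAP2* lie 2761 bases apart on chromosome 7, both on the plus strand, and encode membrane proteins of the prostate, of which STEAP2 reduces iron and copper. *STEAP1* spans 90154375 to 90164829 and was at 1.24, 1.74, 1.65, 0.936 and 1.32 RPKM in DMSO libraries 1 to 5. The GW3965 libraries held 0.990, 1.57, 1.37, 1.32 and 1.86 RPKM. The groups overlapped over almost their whole range, on only 52 to 114 reads a library, and the log2 fold change was 0.05 (SE 0.19, 95% interval -0.36 to 0.46, limma adjusted p = 0.987). Of the 50-base windows of the *STEAP1* transcripts, 21.4% also occur in *STEAP1B*, so that part of its reads may have been split or lost in counting.

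*STEAP2* spans 90167590 to 90238137. Its DMSO libraries 1 to 5 held 0.747, 0.831, 0.833, 0.494 and 0.778 RPKM, and GW3965 libraries 1 to 5 held 0.911, 0.846, 0.615, 0.573 and 0.754 RPKM. The values overlapped, and DMSO library 4 was the lowest of all 10. The log2 fold change was 0.01 (SE 0.18, 95% interval -0.39 to 0.40, limma adjusted p = 0.997). For both genes the sign of the difference turned when DMSO library 4 or GW3965 library 5 was left out, and for *STEAP2* also without GW3965 library 1 or 2. Library 4 of the DMSO group was in addition the highest of its group for *FOXA1*, *SLC45A3* and *FKBP5*.

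The other STEAP genes were *STEAP3*, *STEAP4* and *STEAP1B*, of which only *STEAP3* was tested. *STEAP3*, which encodes an endosomal iron reductase, had a higher mean in both groups than any luminal gene but *FOXA1*, though its libraries overlapped those of *SLC45A3*. *STEAP3* was at 5.99, 7.19, 8.38, 7.85 and 6.43 RPKM in DMSO libraries 1 to 5 and at 5.13, 4.42, 5.67, 5.30 and 5.84 RPKM in the GW3965 libraries. As in *SLC45A3*, every GW3965 library lay below every DMSO library. The log2 fold change was -0.43 (SE 0.10, 95% interval -0.66 to -0.20) with a limma adjusted p of 0.222, which misses the threshold.

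*TMPRSS2* encodes a serine protease of the luminal cell surface and is the usual 5′ partner of the ETS gene fusions of prostate cancer. It lies on chromosome 21 from 41464551 to 41531116 on the minus strand. Libraries 1 to 5 of the DMSO group were at 0.963, 0.988, 1.13, 1.12 and 1.06 RPKM. Those of the GW3965 group were at 1.06, 1.07, 1.38, 1.08 and 1.02 RPKM. GW3965 library 3 stood above the rest, and the other libraries of both groups overlapped. The log2 fold change was 0.08 (SE 0.11, 95% interval -0.15 to 0.32, limma adjusted p = 0.944), on 218 to 345 reads a library, and was 0.01 without GW3965 library 3. *ERG*, the most frequent partner in these fusions, had 0 reads in DMSO and 1 read in GW3965. *ETV1*, another ETS factor gene among the lineage factors, was at 3.63 RPKM in DMSO and 3.64 RPKM in GW3965. Among 17 other type II transmembrane serine proteases, *TMPRSS9* alone reached the filter, with a log2 fold change of -0.43 (SE 0.20, limma adjusted p = 0.721).

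*FOLH1* encodes prostate-specific membrane antigen (PSMA), a glutamate carboxypeptidase used as a target of imaging and therapy. It lies on chromosome 11 from 49146635 to 49208670 on the minus strand and was below the filter. DMSO libraries 1 to 5 held 0.304, 0.0929, 0.155, 0.167 and 0.191 RPKM, from 169 reads in total. The GW3965 libraries held 0.298, 0.169, 0.337, 0.191 and 0.127 RPKM, from 216 reads. The groups overlapped, with an exact two-sided permutation p of 0.429 for the means of 0.182 ± 0.0772 and 0.224 ± 0.0889 RPKM (SD, n = 5). Of its 50-base transcript windows, 28.5% also occur in other genes, mostly in *FOLH1B*, which itself was at 0.0988 RPKM in DMSO and 0.0502 RPKM in GW3965, so the level of *FOLH1* is uncertain.

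The order of the levels in DMSO was *FOXA1*, *SLC45A3*, *FKBP5*, *STEAP1*, *TMPRSS2*, *STEAP2*, *FOLH1*, then *KLK2* and *KLK3* at 0. *FOXA1* was 5.55 times as high as *SLC45A3*, and *SLC45A3* 3.77 times as high as *FKBP5*, with no overlap over the 10 libraries in either step. *STEAP1* was apart from neither of its neighbours: *FKBP5* lay above it in 5 of 10 libraries, and it lay above *TMPRSS2* in 7 of 10, while *FKBP5* lay above *TMPRSS2* in all 10. *TMPRSS2* lay above *STEAP2*, and *STEAP2* above *FOLH1*, in all 10. The spread between DMSO libraries was widest for *FOLH1*, with a coefficient of variation of 42.4%, and narrowest for *TMPRSS2*, with 7.22%.

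Among other genes that androgen switches on in prostate cells, most were expressed in PC3 and 1 changed. Of 24 such genes 17 were tested, and *ACSL3* was called higher by limma, against 0.147% of all tested genes. An unadjusted p under 0.05 was found for 3 of the 17, against 6.99% of all tested genes, and the median log2 fold change was -0.02. *ACSL3* encodes an enzyme that activates long-chain fatty acids. It was at 12.5, 11.5, 10.4, 9.07 and 11.0 RPKM in DMSO libraries 1 to 5 and at 19.0, 18.8, 18.6, 18.2 and 20.1 RPKM in the GW3965 libraries. All 5 treated libraries lay above all controls, and the gene rose by a log2 fold change of 0.80 (SE 0.08, 95% interval 0.62 to 0.97, limma adjusted p = 0.00165), the same direction as the LXR target genes.

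The gene next to *ACSL3* in size of difference was *C1orf116*, which encodes an androgen-regulated protein called SARG. It was at 1.19 ± 0.122 RPKM in DMSO and 1.69 ± 0.0685 RPKM in GW3965, without overlap, with a log2 fold change of 0.48 (SE 0.09, limma adjusted p = 0.0781). The lowest value of the list was that of *HPGD*, which encodes a prostaglandin dehydrogenase, at -0.23 (SE 0.26, limma adjusted p = 0.931). *NNMT*, an enzyme gene of nicotinamide metabolism, had the highest level, at 20.4 ± 1.83 RPKM in DMSO and 22.7 ± 3.02 RPKM in GW3965.

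**Figure D3:**
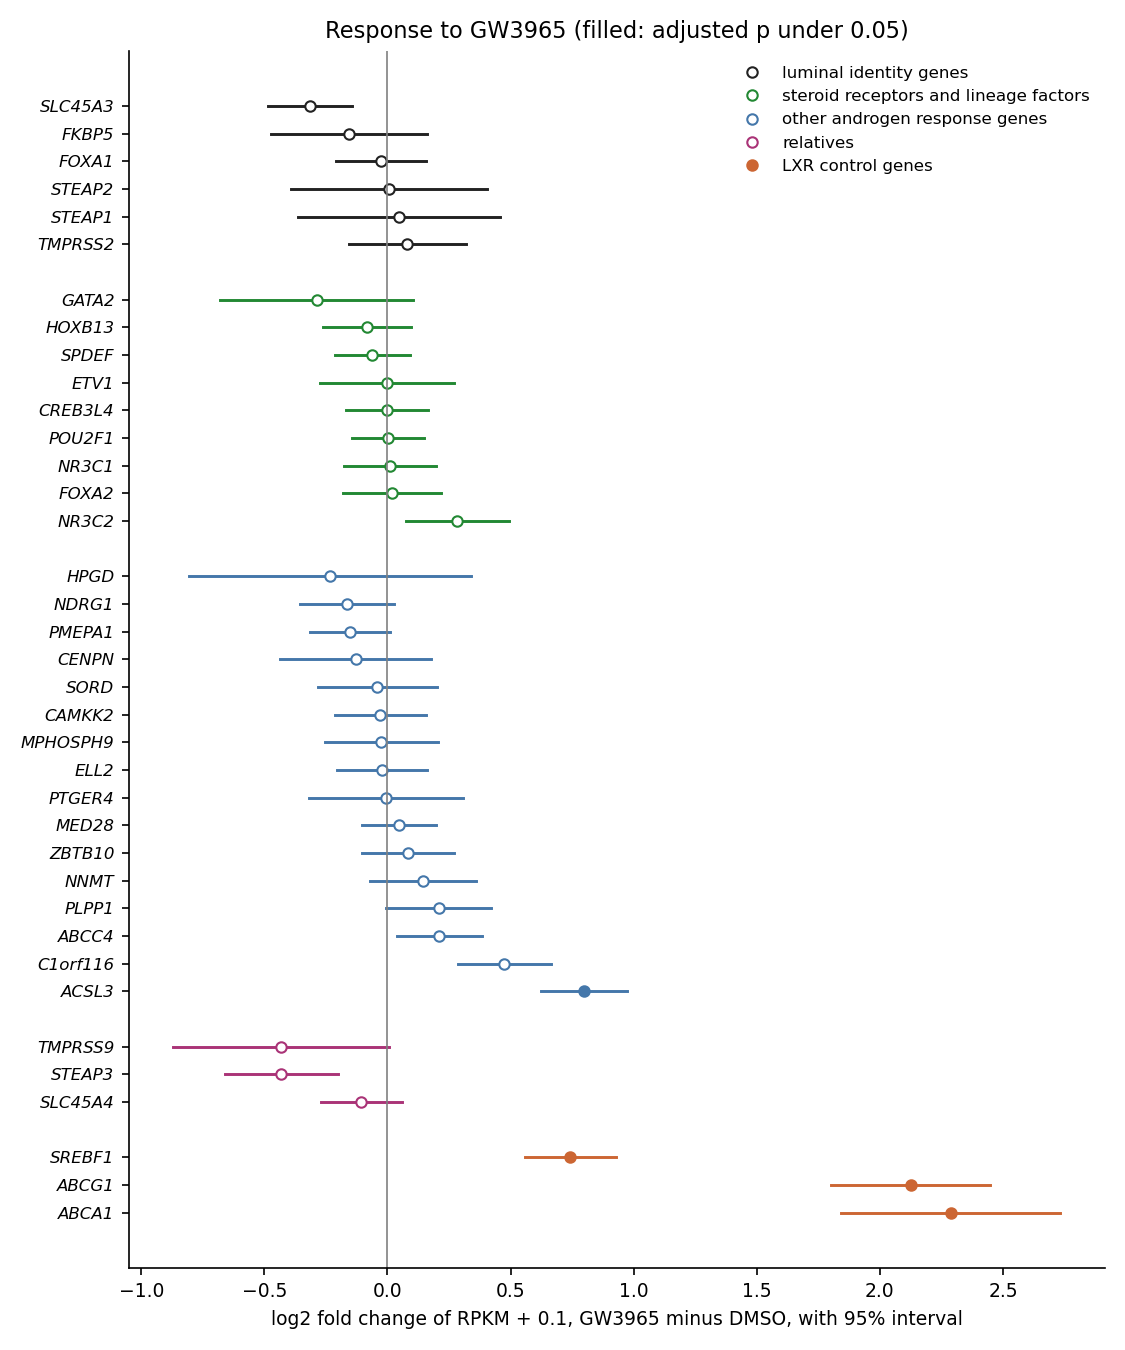
Log2 fold change of RPKM + 0.1, GW3965 minus DMSO, with its 95% interval (x axis) for the tested luminal genes, the lineage factors reported here, other androgen response genes, relatives of the luminal genes and LXR control genes; filled points have a limma adjusted p under 0.05. Filled points are *ACSL3* and the 3 LXR control genes, and of the luminal genes the interval of *SLC45A3* alone lies off 0.

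Most secretory genes of the luminal cell were also low. Of 17 other secretory and luminal genes, among them the kallikreins *KLK4*, *KLK11* and *KLK15*, 13 lay below the filter with means over all 10 libraries of at most 0.378 RPKM, and *KLK4* and the semenogelin gene *SEMG1* had no read at all. *ACPP*, which encodes prostatic acid phosphatase, was at 0.0453 RPKM in DMSO, and *MSMB*, which encodes microseminoprotein beta, had 1 read in DMSO and 0 in GW3965. The 4 genes above the filter were *KRT8*, *KRT18*, *KRT19* and the retinal reductase gene *RDH11*. Of these, 0 were called by limma, 1 with an unadjusted p under 0.05. *RDH11* was at 31.7 ± 2.68 RPKM in DMSO and 35.8 ± 1.77 RPKM in GW3965, and its log2 fold change was 0.18 (SE 0.07, limma adjusted p = 0.582). Its groups only just failed to overlap, with the highest DMSO library at 33.976 RPKM and the lowest GW3965 library at 33.996 RPKM. No overlap with GW3965 higher held for 1.35% of all tested genes. *KRT19* was at 140 ± 13.1 and 157 ± 15 RPKM, with a log2 fold change of 0.17 (SE 0.09, limma adjusted p = 0.760).

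**Figure D4:**
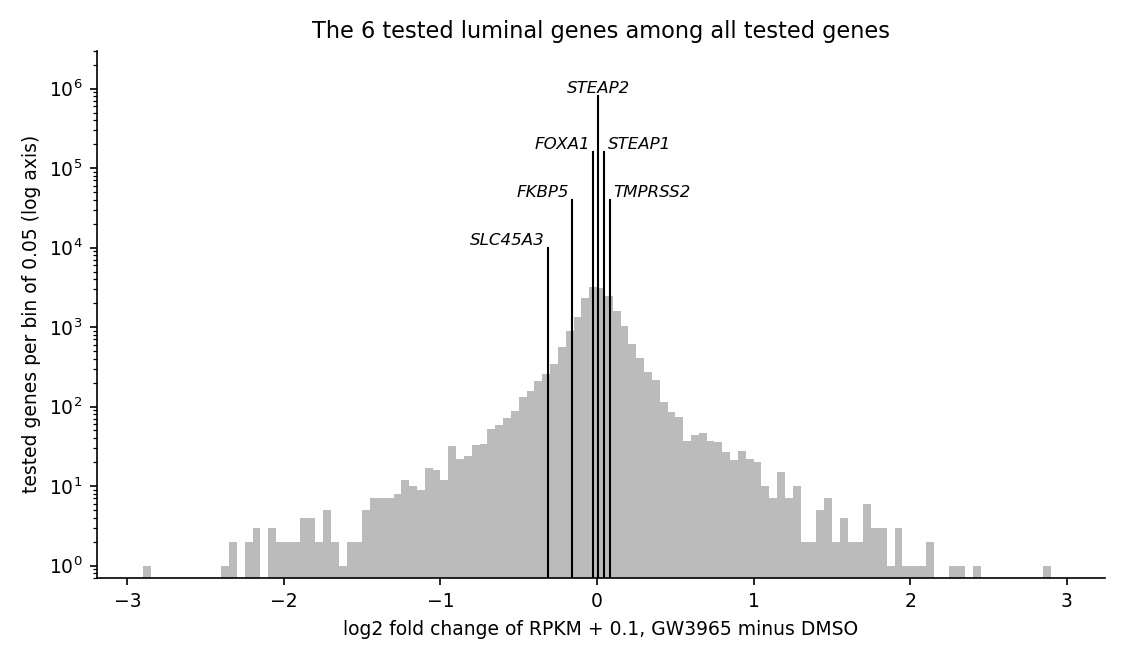
Number of tested genes per bin of 0.05 (y axis, log) by log2 fold change of RPKM + 0.1, GW3965 minus DMSO (x axis), for the 20402 genes tested; lines mark the 6 tested luminal genes, and the height of a line has no meaning. *SLC45A3* at -0.31 and *FKBP5* at -0.16 lie in the left flank of the distribution, below which 6.03% and 14.5% of the tested genes are found, and the other lines lie near its middle.

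Genes whose level followed a luminal gene most closely over the 10 libraries were sought among 20401 others by Pearson's r of log2(RPKM + 0.1), as a description with no test. For *FOXA1* these were *TNRC18* and *C1R*, both at 0.947, and *SIPA1L2* at 0.941. For *SLC45A3* they were *SUSD6* at 0.966, *PRKCE* at 0.954 and *RPSAP21* at 0.942. The highest for *FKBP5* was *AC092896.1* at 0.973, followed by *MCM6* and *TRIM26*, both at 0.969. *STEAP1* went with *IER5L* at 0.918, *ATF1* at 0.907 and *NME7* at 0.898, *TMPRSS2* with *SIRT7* at 0.894 and *CAMK1* at 0.890, and *STEAP2* with *LYST* at 0.972. The remaining genes of the 3 closest to *TMPRSS2* and *STEAP2* have no symbol in the table. The points share the libraries, their scaling and the treatment. Picking the highest of 20401 values over only 10 libraries also raises r by itself, and how far was not tested.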

How the data were processed

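Total RNA of PC3 cells was depleted of ribosomal RNA and made into stranded libraries, though the labels also name polyA RNA. Per the submitters' processing notes, the authors aligned the reads with HISAT2 2.1.0 to hg38 and counted them with HTSeq 0.11.2. The study's methods name a mouse genome, but all identifiers in the table are human. The strand setting is not given in the sources used here, so reads of genes that overlap on opposite strands may be mixed. The unit deposited by the authors was RPKM, for 62656 genes in 10 library columns.

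The RPKM values above 0 were turned back into reads, and all 380271 came out whole within 0.001. The library factors in them equalled median-of-ratios size factors to 8.9e-16. Differences were tested with limma 3.58.1 (R 4.3.3, eBayes with a trend) on log2(RPKM + 0.1), in 20402 genes whose mean reached 0.5 RPKM. Tests were two-sided, and p-values were adjusted over all tested genes by Benjamini-Hochberg, with a threshold of 0.05. Fold changes are on that scale and understate those of low genes. Genes below the filter, and *SLC45A3* in addition, were compared by an exact permutation test of mean RPKM over 252 labellings. Positions and transcripts were from GENCODE 29, and the 250 bases before each RefSeq start (GRCh38.p14) were searched for motifs. Scripts were tested on simulated data.

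The luminal genes and all lists were chosen with earlier results of these data known. Named were the luminal and LXR control genes, of each other list the called genes, the highest in RPKM and the tested genes with the highest and lowest log2 fold change, the 3 genes most like each tested luminal gene, and overlapping or neighbouring genes, of which those below the filter and genes without a symbol are not listed. Other list members, such as *SPDEF*, *FOXA2*, *ETV1*, *NR3C1*, *FKBP4*, *ACPP*, *MSMB*, *C1orf116*, *STEAP4* and *TMPRSS3*, were named after their values had been seen. Some list members are counted but not reported here by name. Alternatives were pseudocounts of 1 and 0.01, no filter and one at 1 RPKM, other scalings and variance models, voom on the recovered reads, a replicate block, and leaving out each library.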

Additional observations from a re-analysis of the deposited data

Results flagged for a closer look

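In 3 of 69 groups of 5 libraries tested, 1 library stood apart from the other 4 by Dixon's ratio (its gap to the nearest library over the range of the group, with a limit of 0.71), where chance gives about 1 in 20 groups, or 3.45. *TMPRSS2* in GW3965 had a ratio of 0.816, since library 3 was at 1.38 RPKM and the others between 1.02 and 1.08 RPKM. *STEAP2* in DMSO had a ratio of 0.786, with library 4 at 0.494 RPKM and the others between 0.747 and 0.833 RPKM. *ERRFI1* in GW3965 had a ratio of 0.776, with library 5 at 36.6 RPKM and the others between 26.4 and 28.4 RPKM.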

How the results depend on the processing

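None of the 6 tested luminal genes was called under any of the 20 alternatives (19 for *STEAP2*, which is below a filter of 1 RPKM). *FOLH1* and *KLK2* entered limma only with no filter and were not called there, and *KLK3*, with no reads, entered none. *SLC45A3* stayed between -0.35 and -0.25 on the log2 scale, with limma adjusted p from 0.132 to 0.449. *FKBP5* stayed below 0 and *TMPRSS2* above 0. With library quality weights the sign turned for *FOXA1* (0.018), *STEAP1* (-0.039) and *STEAP2* (-0.146), and leaving out 1 library gave -0.064 to 0.030, -0.074 to 0.160 and -0.112 to 0.082. The sign also turned for *HSP90AB1* (weights 0.068, leaving out 1 library -0.068 to 0.050), *HSPA8* (weights 0.010), *KRT15* (quantile normalization -0.0052, weights -0.020, leaving out 1 library -0.037 to 0.058) and *KRT8* (weights 0.024, leaving out 1 library -0.094 to 0.025). The cause was not tested.

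Called over all genes were 30 higher and 2 lower. Higher calls were 14 with a replicate block, 19 without a variance trend, 54 with library weights, 59 with voom, and 17 to 37 without 1 library. Lower calls were 1 with no filter, 6 after quantile normalization, 1 without a trend, 4 with voom, and 0 to 2 without 1 library. Of the other androgen response genes, 2 were called with library weights and with voom, the second being *C1orf116*. The mean over all 10 libraries was 5.48 RPKM for *SLC45A3* and 0.00204 RPKM for *KLK2*.

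No pairing by replicate number was seen: correlations of same-numbered libraries ran from -0.138 to 0.16, and 1 of 5 numbers matched best with its own. Such values cannot show that same-numbered libraries were handled apart. In the paired fit *SLC45A3* was at -0.31 (limma adjusted p = 0.285), and *SREBF1* (0.74) had an adjusted p of 0.0643. The 3 reads that a count of 0 allows limit what can be said of *KLK3*.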

Other observations

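A pair of relatives of the luminal genes lay below the filter but differed in reads between the groups. *STEAP4*, which encodes a metalloreductase known from fat tissue and liver, was at 0.180 ± 0.0741 RPKM in DMSO and 0.302 ± 0.066 RPKM in GW3965 (SD, n = 5), from 359 and 615 reads, with an exact two-sided permutation p of 0.0317. *TMPRSS3*, a type II transmembrane serine protease gene, was at 0.209 ± 0.0417 and 0.303 ± 0.0336 RPKM, from 185 and 267 reads, with no overlap and an exact two-sided permutation p of 0.00794. The p of *TMPRSS3* is the one that groups of 5 without overlap always give. Both genes were picked after their values had been seen, among 3 other STEAP genes and 17 other proteases of the family, and neither p is adjusted.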
